A study of Homo sapiens with 6 samples.

Results

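The genes described here are 46 of the 58735 genes in the count table of the series: 45 genes of the Wnt pathway, and TNFRSF19, a receptor of the tumour necrosis factor family. They were selected on their gene symbols, as ligands, receptors, members of the destruction complex, TCF factors and feedback genes. The list was drawn up with results of the same comparison known, and TNFRSF19 was taken in with its large difference in view, so its difference is given as a description without a test. For the other 45 genes, the adjusted p-values say where each gene stood among all genes tested, and they lend no support to the choice of the list.

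RNA sequencing was performed on AsPC-1 cells, a widely used established line derived from pancreatic cancer, in 6 libraries. The Vector group (n = 3, titled NC and wild type by its label) was taken to be the study's overexpression control, which carried an empty lentivirus. The OE-MMP28 group (n = 3, titled OE) carried a lentivirus with the MMP28 cDNA, which encodes a secreted matrix metalloproteinase. According to the study's methods, the MMP28 virus also encoded GFP and a puromycin resistance gene, and stably infected cells were selected with puromycin. The methods name triplicate samples for each sequenced group. They also say in general that cell experiments were repeated independently at least 3 times, without saying whether this covers the libraries. Neither the labels nor the methods describe the libraries of a group as separate infections. An effect of MMP28 and any other difference between the 2 selected cell populations cannot be told apart, and the p-values measure the spread between these libraries, which may be technical.

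Total counts ranged from 13633249 to 16691458 per library, and the totals of the OE-MMP28 group lay above those of the Vector group. A count of 0, read as at most 3 counts, allowed at most 0.180 to 0.220 CPM (counts scaled to the total of their library), and this limit covers counting error only. MMP28 itself was measured at 5.17, 9.11 and 8.43 FPKM (fragments scaled to gene length and to the library total) in the Vector libraries and at 13.1, 13.9 and 15.1 FPKM in the OE-MMP28 libraries. The groups did not overlap, and edgeR gave a log2 fold change of 0.90 (SE 0.19) with a Benjamini-Hochberg adjusted p of 0.00226, the test used for all genes below. A two-sided exact permutation test of the FPKM values returned p = 0.1, and no smaller value is possible with 3 libraries in each group.

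Wnt proteins are secreted, lipid-modified ligands that bind Frizzled receptors (FZD) together with the co-receptors LRP5 and LRP6. In the absence of a ligand, a destruction complex of AXIN, APC, GSK3B and CSNK1A1 marks β-catenin, the product of CTNNB1, for degradation. Ligand binding recruits Dishevelled (DVL), the complex is held at the membrane, and β-catenin enters the nucleus and acts with the TCF/LEF factors. The pathway is known for its role in stem cells of the gut and in many tumours of the digestive tract, and several of its own inhibitors and receptors are among its target genes. TNFRSF19, also called TROY, is counted among those targets and is known from stem cells of the intestine.

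The promoter sequences of 4 genes are shown: TNFRSF19 with the largest difference of the set, ROR1 and LRP5 as receptors that rose under every processing alternative, and DKK1, the most abundant transcript and a gene that fell and holds letters of the TCF/LEF motif. The windows of FZD1 and WNT10A, whose transcripts also rose, overlap annotated exons by 69 and 250 bases and are not shown. The DKK1 window is shown despite its own exon overlap, partly because it holds a match, so exon overlap was not applied evenly. No promoter window was found for AXIN2, which also rose under every alternative. Each sequence is the 250 bases before a RefSeq transcription start, written 5′ to 3′ on the strand of the gene, on build GRCh38.p14. The letters searched on both strands were CTTTGAT, and the same run with its last letters as TT (written CTTTGTT), as AA (written CTTTGAA) or as TA (written CTTTGTA), and matches are in capitals. The DKK1 window is chr10:52314031-52314280 on the plus strand, and all of it lies in an exon of the antisense gene PRKG1-AS1.
DKK1: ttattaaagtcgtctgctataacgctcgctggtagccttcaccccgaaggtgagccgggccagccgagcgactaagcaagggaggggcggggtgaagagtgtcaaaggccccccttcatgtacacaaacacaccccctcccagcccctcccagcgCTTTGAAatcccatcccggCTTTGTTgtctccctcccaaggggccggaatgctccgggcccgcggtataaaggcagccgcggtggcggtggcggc
The TNFRSF19 window is chr13:23579110-23579359 on the plus strand, before the second of its 2 listed starts and inside the annotated gene. The window before the other start overlaps an exon by 42 bases and is not shown.
TNFRSF19: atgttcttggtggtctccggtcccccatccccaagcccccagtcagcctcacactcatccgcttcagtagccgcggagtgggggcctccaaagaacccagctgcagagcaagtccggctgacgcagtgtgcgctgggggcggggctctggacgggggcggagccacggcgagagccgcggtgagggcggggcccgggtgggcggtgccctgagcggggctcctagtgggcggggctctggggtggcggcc
The ROR1 window is chr1:63773767-63774016 on the plus strand.
ROR1: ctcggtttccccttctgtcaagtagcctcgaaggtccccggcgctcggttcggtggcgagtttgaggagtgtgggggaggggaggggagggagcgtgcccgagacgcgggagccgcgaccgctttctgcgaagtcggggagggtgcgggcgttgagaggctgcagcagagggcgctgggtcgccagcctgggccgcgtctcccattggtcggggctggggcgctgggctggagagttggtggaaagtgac
The LRP5 window is chr11:68312341-68312590 on the plus strand.
LRP5: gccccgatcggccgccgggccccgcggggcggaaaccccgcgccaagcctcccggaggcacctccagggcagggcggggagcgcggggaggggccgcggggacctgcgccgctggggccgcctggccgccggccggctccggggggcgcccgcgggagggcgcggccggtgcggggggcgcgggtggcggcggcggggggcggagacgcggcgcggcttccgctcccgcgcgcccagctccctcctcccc
In the DKK1 window CTTTGAA began 95 bases and CTTTGTT 76 bases before the start, both on the strand of the gene. The other 3 windows held none of the searched letters, nor did the TNFRSF19 window that is not shown. The share of G and C was 62.8% in the DKK1 window, 69.2% in that of ROR1 and 87.2% in that of LRP5. It was 49.6% and 72.4% in the windows of the first and second TNFRSF19 start.

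Promoter windows were found for 31 of the 46 genes, with 41 starts in all. At least 1 match lay before a start of 3 of these genes, namely TCF7, TCF7L2 and DKK1. Over all 35116 promoter windows of the same length, 12% held at least 1 match. Among the 10 matched Wnt pathway genes that are described below with a call, DKK1 was the only one with a match. A match gives letters in a window and is not evidence of binding.

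TNFRSF19 (ENSG00000127863, chromosome 13, 23570370 to 23676104, plus strand) was measured at 375, 446 and 480 counts in the Vector libraries and at 35, 44 and 45 counts in the OE-MMP28 libraries. The same libraries held 4.80, 6.45 and 6.37 FPKM against 0.433, 0.543 and 0.523 FPKM. Every OE-MMP28 library lay far below every Vector library, and the group means of 5.87 ± 0.933 and 0.5 ± 0.0586 FPKM (SD, n = 3) had a ratio of 11.8. The log2 fold change was -3.54 (SE 0.22), and 28 of the 15319 genes tested had a lower value. As the gene was taken in with this difference in view, its SE and its place among all genes are description only. The tested genes within 5 Mb to either side of TNFRSF19, 49 in number, had a median log2 fold change of 0.032, and with an offset for that median the value was -3.57.

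Of the 45 Wnt pathway genes, 36 passed the filter on low counts. Among these, 9 rose in OE-MMP28 cells (AXIN2, LGR4, LGR5, LRP5, FZD1, WNT10A, WLS, ROR1 and RYK), 5 fell (CTNNB1, LRP6, FZD3, DKK1 and BCL9) and 22 did not pass the threshold of an adjusted p under 0.05. Over all genes tested, 11.7% rose and 11.6% fell. The median log2 fold change of the 36 genes was 0.083, beside 0.014 over all genes tested, whose quartiles were -0.33 and 0.32. Most of the 14 calls lay among the receptors. Of 12 receptors and co-receptors tested, 6 rose and 2 fell. Of 6 genes of the destruction complex and its substrate, 1 rose and 1 fell. Of 5 ligands 1 rose, of 2 genes of ligand release 1 rose, of 4 nuclear factors 1 fell, and the single secreted inhibitor tested fell. The 3 Dishevelled genes and the 3 feedback genes that were tested gave no call.

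The 9 Wnt genes left out by the filter had low counts in both groups. WNT7A, a ligand, and SFRP1, a secreted Frizzled-like inhibitor, were at 0 in all 6 libraries. WNT5A, a ligand of β-catenin independent signalling, reached 2 counts in 1 library and 0 in the others. LEF1, a partner of β-catenin on DNA, had 8, 5 and 3 counts against 10, 13 and 10, without overlap. The receptors FZD2 (1 to 11 counts) and FZD8 (6 to 13), the inhibitors DKK3 (3 to 15) and NOTUM (4 to 24), and NKD2 (0 to 8), an inhibitor that binds Dishevelled, had overlapping groups.

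**Figure D1:**
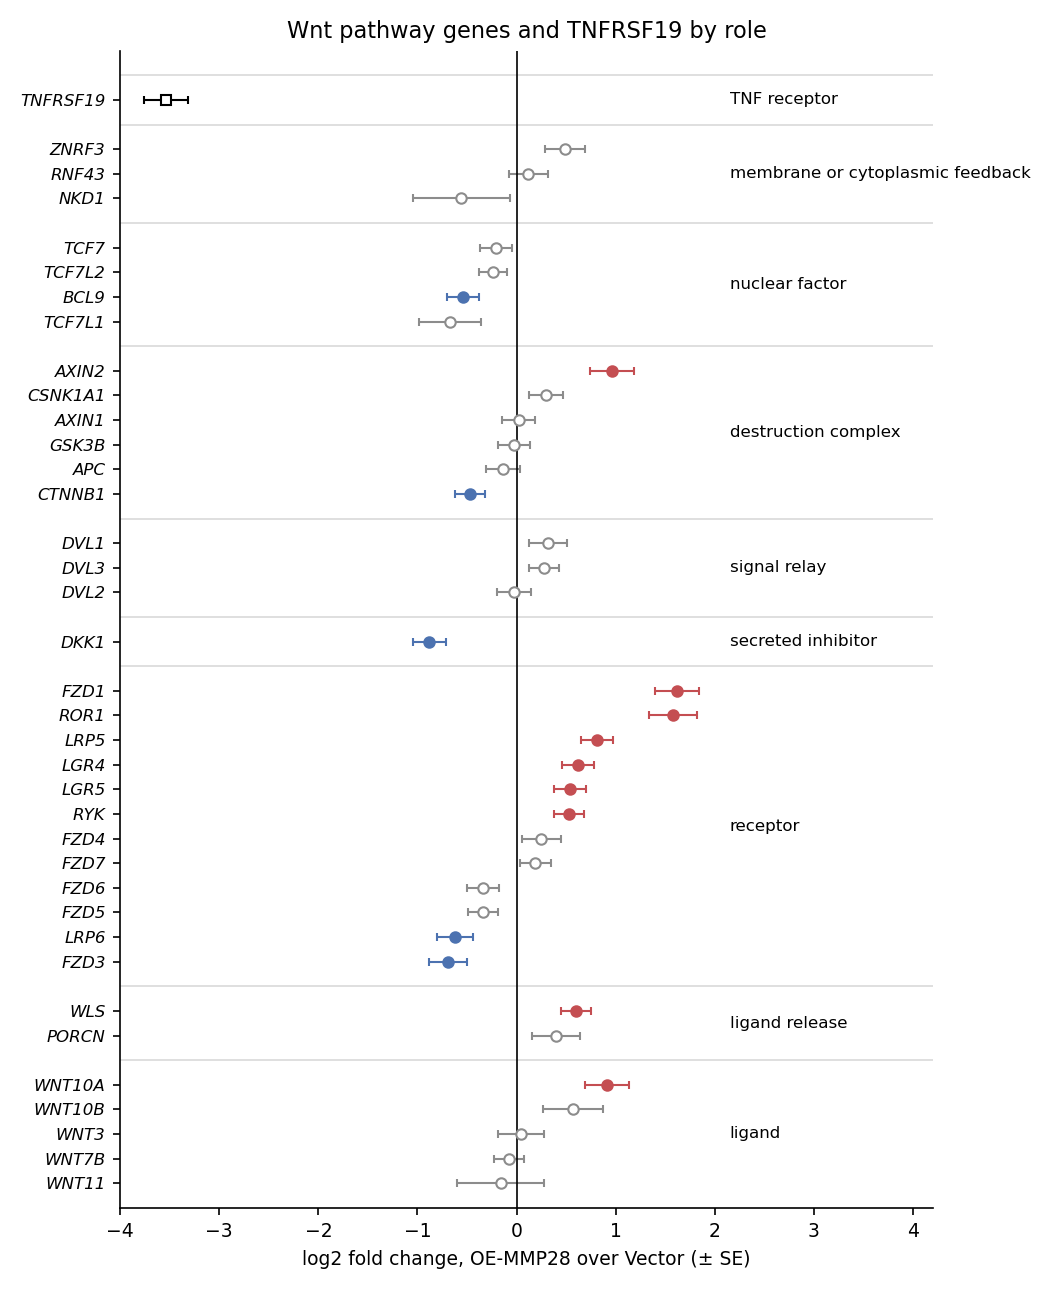
The log2 fold change of OE-MMP28 over Vector (horizontal axis, bars are the standard error) is plotted for the 36 Wnt pathway genes tested and for TNFRSF19 (open square), grouped by role. Filled points passed an adjusted p under 0.05, red for higher and blue for lower, and they lie between -0.88 for DKK1 and 1.62 for FZD1, while TNFRSF19 stands apart at -3.54.

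The levels in the Vector libraries set the scale of these differences. By FPKM, which corrects for gene length, 31 of the 46 genes had a mean of at least 1, 20 of at least 5, 14 of at least 10 and 5 of at least 20. DKK1 came first with 187 to 324 FPKM, and its range did not touch that of any other gene in the list. CTNNB1 (37.8 ± 2.77 FPKM, SD, n = 3) and LRP5 (32.2 ± 3.36) followed with overlapping ranges, then TCF7L2 (26.9 ± 1.64) and DVL1 (23.7 ± 2.93), which overlapped each other. From LGR4 (19.2 ± 1.48) down to FZD5 (9.93 ± 0.642), each gene overlapped the next in the order LGR4, WNT7B, LGR5, CSNK1A1, DVL3, WLS, FZD7, AXIN1, FZD6 and FZD5. Several genes that rose in OE-MMP28 cells started from a low level, with AXIN2 at 1.06, ROR1 at 0.758 and FZD1 at 0.587 FPKM.

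Among the ligands, WNT10A, which can act through β-catenin, rose. It was measured at 1.57, 2.62 and 2.63 FPKM in the Vector libraries and at 4.06, 4.38 and 4.23 FPKM in the OE-MMP28 libraries. The OE-MMP28 values lay close together above all Vector values, and the log2 fold change was 0.91 (SE 0.22, adjusted p = 0.00498). WNT7B was the most abundant ligand of both groups, at 19.8, 17.6 and 16.3 FPKM against 14.9, 17.7 and 17.9 FPKM. Its groups overlapped, with a log2 fold change of -0.076 (SE 0.15, adjusted p = 0.763). WNT10B gave 0.57 (adjusted p = 0.19) without overlap between the groups, and WNT3 (0.047) and WNT11 (-0.16) overlapped.

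WLS, the carrier that brings Wnt ligands to the cell surface, also rose. Its values were 11.2, 12.1 and 11.9 FPKM against 16.4, 18.8 and 17.5 FPKM. All OE-MMP28 libraries were higher, with a log2 fold change of 0.60 (SE 0.15, adjusted p = 0.00675). Without OE-MMP28 replicate 2 the adjusted p was 0.0659. PORCN, the enzyme that attaches the lipid to Wnt proteins, gave 0.40 (adjusted p = 0.24), and its groups overlapped.

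Summed over the 19 WNT genes of the annotation, the ligand level was 27.3 ± 1.29 FPKM in the Vector group and 27.0 ± 1.81 FPKM in the OE-MMP28 group (SD, n = 3). The makeup of this sum differed more than its size. WNT7B made up 65.5% ± 3.90 and 62.2% ± 2.27, with overlapping groups. The share of WNT10A was 8.39% ± 2.47 against 15.6% ± 0.662, and that of WNT16, a ligand outside the 46 genes, was 11.5% ± 1.45 against 6.66% ± 0.489. Neither share overlapped between the groups.

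Of the 6 Frizzled receptors tested, FZD1 rose, FZD3 fell and 4 gave no call. FZD1 was measured at 65, 56 and 57 counts in the Vector libraries and at 194, 226 and 184 counts in the OE-MMP28 libraries. The OE-MMP28 libraries thus stood well clear of the Vector libraries, at 1.79 ± 0.240 against 0.587 ± 0.0284 FPKM (SD, n = 3), and the log2 fold change was 1.62 (SE 0.22, adjusted p = 2.76e-05). FZD3, a receptor known for its part in axon guidance and planar polarity, fell. It was measured at 1.25, 1.08 and 1.28 FPKM against 0.858, 0.7 and 0.673 FPKM, with a log2 fold change of -0.69 (SE 0.19, adjusted p = 0.012). The adjusted p was 0.0602 without Vector replicate 3, 0.0657 without OE-MMP28 replicate 2 and 0.136 under both limma fits on FPKM. FZD7 had the highest mean of the family, at 11.1, 13 and 10.7 FPKM against 12.3, 15.1 and 11.9 FPKM. Its groups overlapped, with a log2 fold change of 0.19 (SE 0.16, adjusted p = 0.438).

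FZD5 and FZD6 each had a log2 fold change of -0.34, with adjusted p-values of 0.12 and 0.121, and in both the groups did not overlap. The tested genes within 5 Mb of them had medians of -0.50 and -0.32. With an offset for these medians FZD5 gave 0.16 (adjusted p = 0.522) and FZD6 -0.021 (adjusted p = 0.946). FZD4 gave 0.25 (adjusted p = 0.393), and 18.9% of its exon length is shared with the opposite-strand gene PRSS23. The sum over the 10 FZD genes was 35.6 ± 1.05 FPKM in the Vector group and 33.8 ± 3.24 FPKM in the OE-MMP28 group, and these groups overlapped. Within the sum, FZD1 went from 1.65% ± 0.0323 to 5.29% ± 0.246 and FZD5 from 27.9% ± 1.86 to 23.1% ± 0.853, while FZD7 was at 32.7% ± 3.28 and 38.7% ± 2.65 with overlap. FZD1 was at 0.491 ± 0.0589 of the FPKM of FZD3 in the Vector group and at 2.44 ± 0.444 of it in the OE-MMP28 group, so the order of these 2 genes was reversed in all libraries.

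The co-receptors LRP5 and LRP6, which bind Wnt ligands beside Frizzled, also changed in opposite directions. LRP5 was measured at 29.9, 36.0 and 30.6 FPKM in the Vector libraries and at 45.1, 65.1 and 57.2 FPKM in the OE-MMP28 libraries. All OE-MMP28 values were higher, although they spread widely, and the log2 fold change was 0.81 (SE 0.16, adjusted p = 0.00121). LRP6 was measured at 4.44, 4.71 and 4.64 FPKM against 3.31, 3.45 and 2.17 FPKM. The groups did not overlap, OE-MMP28 replicate 3 was the lowest, and the log2 fold change was -0.62 (SE 0.18, adjusted p = 0.0153). Without that library the log2 fold change was -0.44 and the adjusted p 0.0795. Under limma on log2(FPKM + 1) and log2(FPKM + 0.1) the adjusted p of LRP6 was 0.0628 and 0.0654. The FPKM of LRP5 divided by that of LRP6 was 6.74, 7.65 and 6.58 for the Vector group, against 13.6, 18.9 and 26.4 for the OE-MMP28 group. This ratio did not overlap between the groups, and the sum of both was 36.8 ± 3.46 against 58.8 ± 10.1 FPKM (SD, n = 3).

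LGR4 and LGR5, receptors for R-spondins that strengthen Wnt signalling, both rose. LGR4 was measured at 17.5, 20.2 and 19.9 FPKM against 35.1, 30.6 and 22.4 FPKM, with a log2 fold change of 0.62 (SE 0.16, adjusted p = 0.00921). LGR5, a marker of intestinal stem cells, was measured at 11.7, 16.0 and 16.5 FPKM against 24.3, 21.6 and 18.2 FPKM, with a log2 fold change of 0.54 (SE 0.16, adjusted p = 0.021). In both genes OE-MMP28 replicate 1 was the highest and replicate 3 the lowest of its group, and no library crossed the gap. Without OE-MMP28 replicate 1 the adjusted p was 0.0533 for LGR4 and 0.0866 for LGR5, and without replicate 2 it was 0.0625 and 0.0976. Under limma on log2(FPKM + 1) and log2(FPKM + 0.1) it was 0.0665 and 0.0669 for LGR4, and 0.0809 and 0.0827 for LGR5. LGR5 also had an adjusted p of 0.0947 without Vector replicate 1. LGR6, the remaining receptor of this family and outside the 46 genes, gave 0.57 (SE 0.17, adjusted p = 0.0199). Its adjusted p was above 0.05 in 7 of 16 alternatives, with 0.0652 without Vector replicate 1, 0.0581 without Vector replicate 3, 0.137 without OE-MMP28 replicate 2 and 0.0858 without OE-MMP28 replicate 3. The sum of the 3 LGR genes was 49.8 ± 6.00 against 73.9 ± 6.45 FPKM (SD, n = 3). The makeup of that sum was similar in the groups, with LGR4 at 38.7% ± 1.83 and 39.4% ± 5.84 and LGR5 at 29.5% ± 2.09 and 28.8% ± 2.18.

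**Figure D2:**
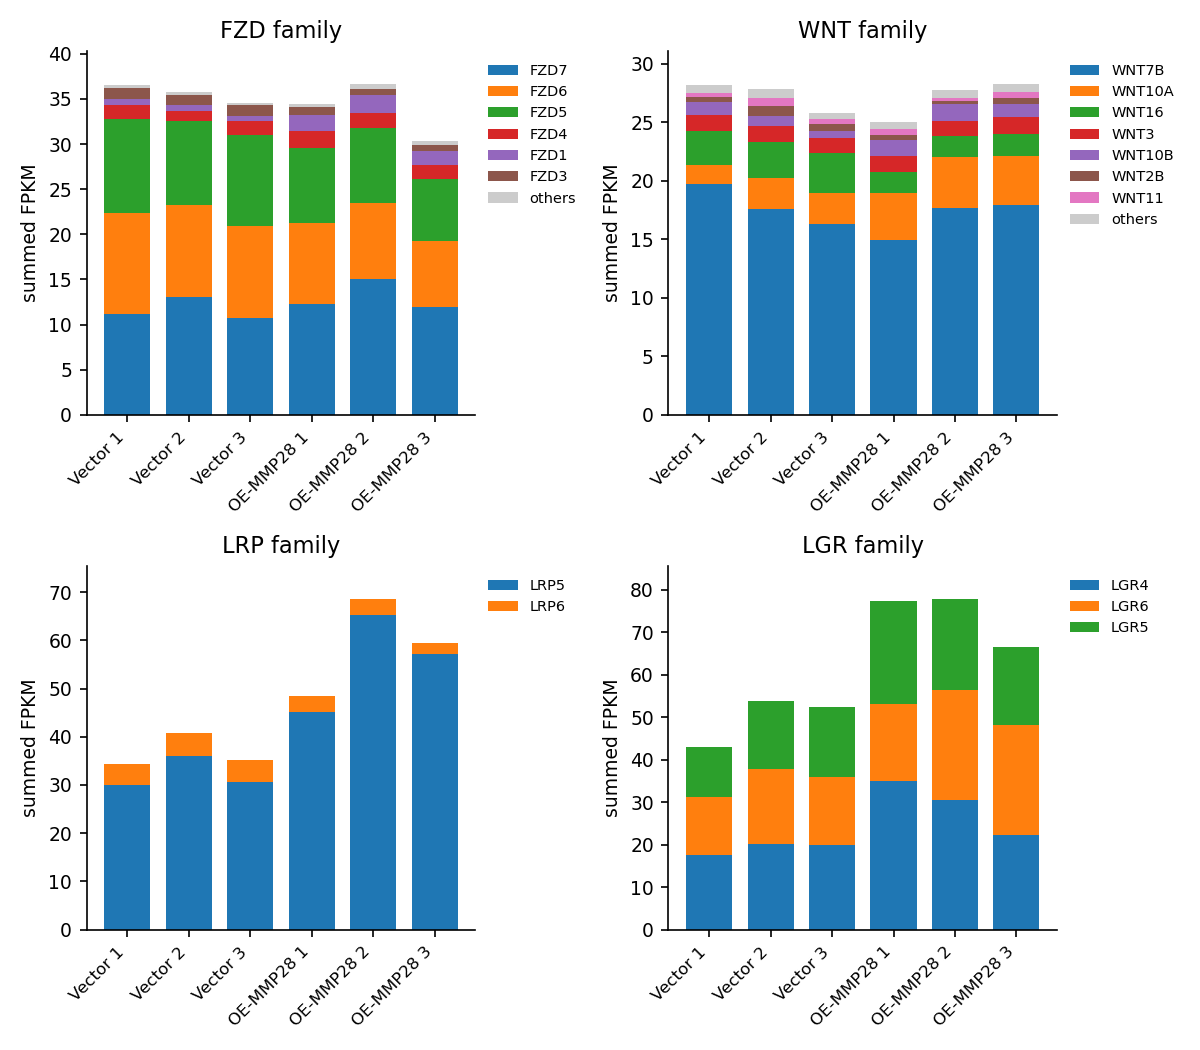
Stacked bars give the summed FPKM (vertical axis, from 0) of the FZD, WNT, LRP and LGR families in each of the 6 libraries, with each colour a gene and genes under 1% of a family pooled as others. The bars of the FZD and WNT families have similar heights in both groups (35.6 and 33.8, and 27.3 and 27.0 FPKM on average), while those of the LRP and LGR families are higher in OE-MMP28 cells (36.8 and 58.8, and 49.8 and 73.9 FPKM).

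ROR1 and RYK are receptors that bind Wnt ligands without β-catenin as the usual outcome, and ROR1 is best known from embryonic tissue and leukaemia. ROR1 was measured at 112, 57 and 55 counts in the Vector libraries and at 240, 244 and 253 counts in the OE-MMP28 libraries. The OE-MMP28 libraries lay close together above all Vector libraries, of which replicate 1 was the highest, and the log2 fold change was 1.58 (SE 0.24, adjusted p = 8.58e-05). ROR2, its relative outside the 46 genes and named here after its values were seen, was measured at 18, 25 and 34 counts against 7, 2 and 5 counts. ROR1 therefore made up 69.7% ± 13.3 of the summed ROR FPKM in the Vector group and 97.9% ± 1.16 in the OE-MMP28 group (SD, n = 3). PTK7, a further co-receptor of this branch that was named in the same way, had 12, 25 and 34 counts against 0, 4 and 4 counts.

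RYK was measured at 7.16, 6.78 and 7.35 FPKM against 11.6, 9.81 and 9.08 FPKM. No library crossed between the groups, and the log2 fold change was 0.53 (SE 0.15, adjusted p = 0.0154). The 52 tested genes within 5 Mb to either side of RYK had a median log2 fold change of 0.66, above that of RYK itself. With an offset for this local median in the model, the value of RYK was -0.14 (adjusted p = 0.592), below 0. The adjusted p was 0.0557 without Vector replicate 3, 0.0506 without OE-MMP28 replicate 1 and 0.0656 without OE-MMP28 replicate 2.

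DKK1, a secreted protein that blocks LRP5 and LRP6, fell. Its promoter window held the searched letters, as did a window of TCF7 and a window of TCF7L2, whose other windows held none. Over all promoter windows the share was 12%, and a link between the letters and the fall was not tested. Its FPKM was 324, 187 and 279 in the Vector libraries and 150, 131 and 146 in the OE-MMP28 libraries. The Vector libraries spread widely and replicate 2 was the lowest of them, but it still lay above all OE-MMP28 libraries. The log2 fold change was -0.88 (SE 0.17, adjusted p = 0.00114), and the group means of 263 ± 69.5 and 142 ± 10.4 FPKM (SD, n = 3) left DKK1 the most abundant of the 46 transcripts in both groups. The 27 tested genes within 5 Mb to either side had a median log2 fold change of -0.46, and with an offset for it DKK1 gave -0.42 (adjusted p = 0.106). Of the exon length of DKK1, 9.61% is shared with PRKG1-AS1 on the other strand.

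Within the destruction complex, AXIN2, a scaffold that is also a standard target gene of β-catenin, rose. It was measured at 71, 69 and 101 counts in the Vector libraries and at 178, 164 and 175 counts in the OE-MMP28 libraries. All OE-MMP28 libraries stood well above the Vector libraries, at 2.04 ± 0.0976 against 1.06 ± 0.223 FPKM (SD, n = 3), and the log2 fold change was 0.96 (SE 0.22, adjusted p = 0.00392). Of its exon length, 25.2% is shared with the same-strand gene AC004805.1, so part of its reads could belong to either. CTNNB1, which encodes β-catenin itself, fell. Its libraries held 35.3, 37.4 and 40.8 FPKM against 28.4, 29.4 and 23.3 FPKM, with a log2 fold change of -0.47 (SE 0.15, adjusted p = 0.0226). The groups did not overlap, and the adjusted p was 0.13 without Vector replicate 3 and 0.0929 without OE-MMP28 replicate 3. Under limma on log2(FPKM + 1) and log2(FPKM + 0.1) it was 0.0512 and 0.052.

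The other scaffolds and kinases of the complex overlapped between the groups. APC gave a log2 fold change of -0.14 (adjusted p = 0.584), AXIN1, the constant scaffold, 0.021 (adjusted p = 0.947), GSK3B -0.029 (adjusted p = 0.921) and CSNK1A1 0.30 (adjusted p = 0.221). CSNK1A1 shares 37.4% of its exon length with the same-strand gene AC021078.1. Leaving out OE-MMP28 replicate 3 gave 0.49 (adjusted p = 0.0395). Standard errors of 0.16 to 0.17 in these 4 genes limit how small a difference could be seen.

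The Dishevelled genes, which relay the signal from the receptors, gave no call. DVL1, the most abundant of them, was measured at 22.7, 27.0 and 21.4 FPKM against 20.3, 31.7 and 35.8 FPKM. OE-MMP28 replicate 1 was below all Vector libraries and the other two were above them, and the log2 fold change was 0.32 (SE 0.19, adjusted p = 0.225). Without that library the value was 0.51 with an adjusted p of 0.0294. DVL3 gave 0.28 (adjusted p = 0.185) without overlap between the groups, and DVL2 gave -0.023 with overlap.

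Among the nuclear factors, BCL9, a coactivator that binds β-catenin, fell. It was measured at 6.32, 5.75 and 6.29 FPKM against 4.12, 4.66 and 3.78 FPKM, without overlap, and the log2 fold change was -0.54 (SE 0.16, adjusted p = 0.0196). The adjusted p was 0.0857 without Vector replicate 3 and 0.0724 without OE-MMP28 replicate 3. TCF7L2 made up most of the TCF/LEF transcripts, 88.9% ± 0.881 in the Vector group and 89.2% ± 0.168 in the OE-MMP28 group (SD, n = 3). It was measured at 25.1, 27.4 and 28.2 FPKM against 25, 21.4 and 21.6 FPKM, and the log2 fold change was -0.24 (SE 0.14, adjusted p = 0.243). TCF7 (-0.21, adjusted p = 0.38) and TCF7L1 (-0.67, adjusted p = 0.117) also had negative values that missed the threshold. TCF7L1 passed it without OE-MMP28 replicate 1 (-0.96, adjusted p = 0.0477). With an offset for the median of the tested genes within 5 Mb, TCF7L2 gave 0.19 (adjusted p = 0.411). TCF7 then gave -0.27 (adjusted p = 0.281) and TCF7L1 -0.26 (adjusted p = 0.61).

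Of the feedback genes, ZNRF3 and RNF43 encode membrane ubiquitin ligases that remove Frizzled receptors, and NKD1 encodes an inhibitor that binds Dishevelled. ZNRF3 gave a log2 fold change of 0.49 (SE 0.20, adjusted p = 0.0821) with all OE-MMP28 libraries (1.56 to 1.95 FPKM) above all Vector libraries (1.13 to 1.45 FPKM). RNF43 gave 0.12 (adjusted p = 0.711) and NKD1 -0.56 (adjusted p = 0.439), both with overlap. Since 57.6% of the exon length of RNF43 is shared with the same-strand gene AC004687.2, its count is uncertain.

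**Figure D3:**
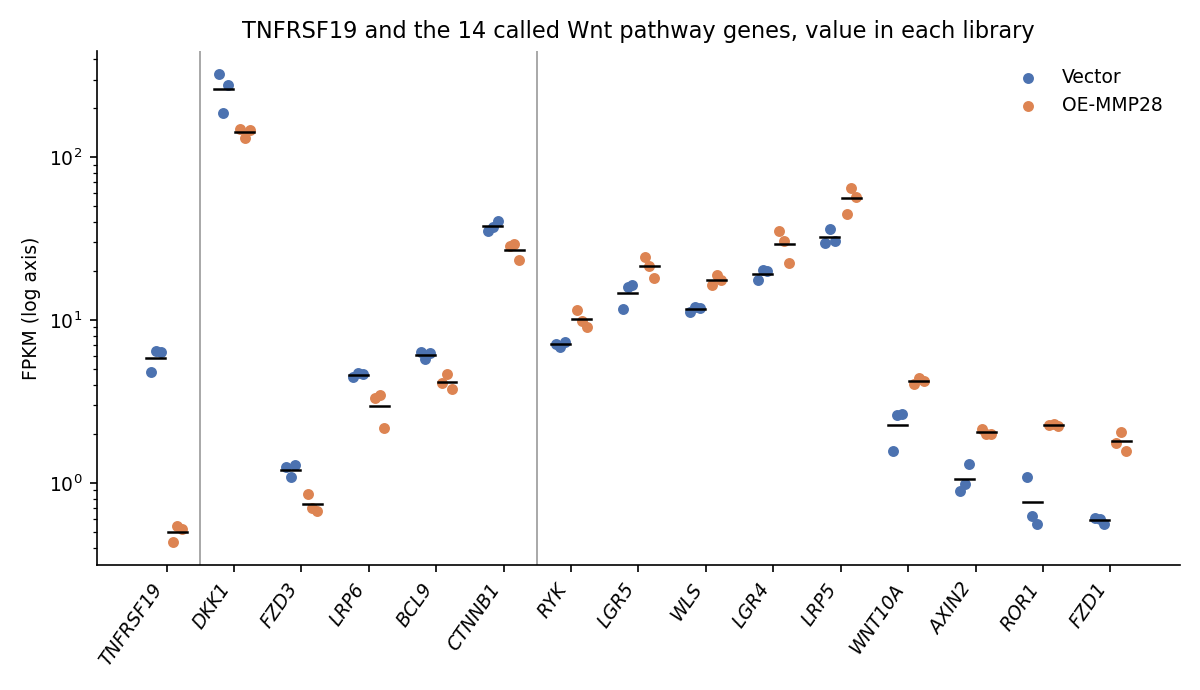
The FPKM in each library (vertical axis, logarithmic) is plotted for TNFRSF19, the 5 Wnt pathway genes that fell and the 9 that rose, with short black lines at the group means. In each of these genes the 3 Vector and the 3 OE-MMP28 points do not overlap, and the levels range from 0.433 FPKM for TNFRSF19 in an OE-MMP28 library to 324 FPKM for DKK1 in a Vector library. The genes plotted were picked by their call, or for TNFRSF19 by its difference, so their separation follows largely from that choice. The share of all genes without overlap is not given.

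The neighbourhood of each gene on its chromosome was examined as one of the processing alternatives. For FZD1, AXIN2, WNT10A, LGR5 and CTNNB1 the median of the tested genes within 5 Mb was opposite in sign to the gene, and the log2 fold changes with the local offset were 1.72, 1.03, 1.23, 0.62 and -0.49. ROR1 (1.29, adjusted p = 0.000887), LRP5 (0.49, adjusted p = 0.0405), WLS (0.53, adjusted p = 0.0197), LRP6 (-0.54, adjusted p = 0.0431) and BCL9 (-0.48, adjusted p = 0.046) had smaller values and remained past the threshold. LGR4 (0.46, adjusted p = 0.0626), FZD3 (-0.36, adjusted p = 0.209), DKK1 and RYK did not. FZD7 passed the threshold with the offset alone, at 0.54 (adjusted p = 0.0266), beside a local median of -0.36. What sets the local medians was not tested.

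**Figure D4:**
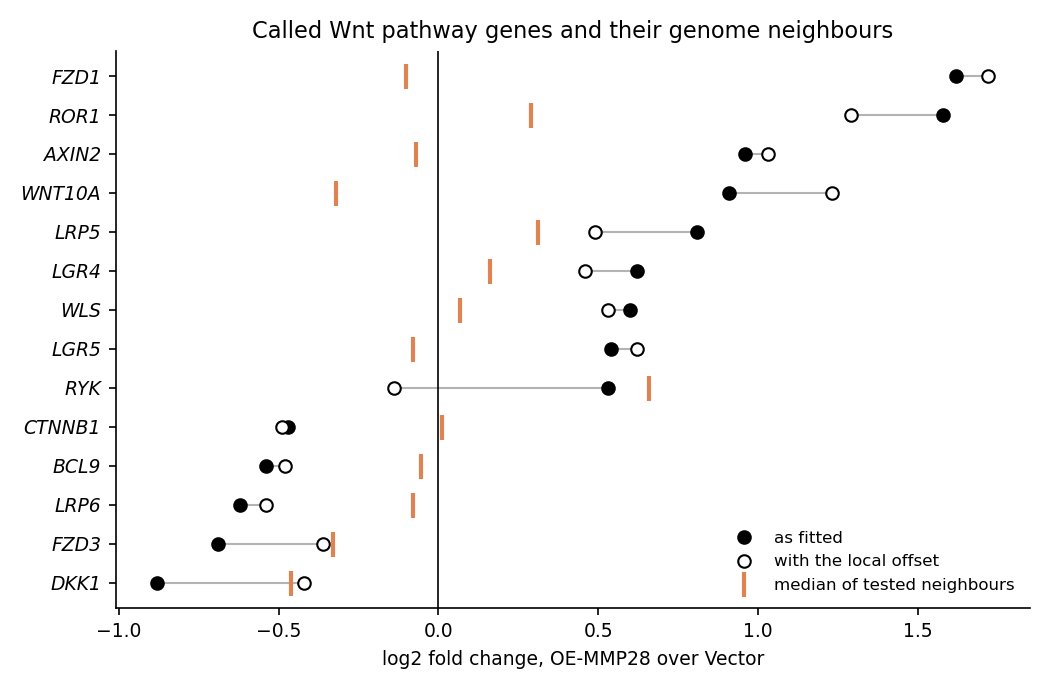
The log2 fold change of OE-MMP28 over Vector (horizontal axis) is plotted for the 14 Wnt pathway genes with a call, as fitted (filled points) and with an offset for the median of the tested genes within 5 Mb (open points), beside that median (orange bars). The open point of RYK lies at -0.14, on the other side of 0 from its filled point at 0.53, while those of FZD1 (1.72) and WNT10A (1.23) lie farther from 0 than their filled points.

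A further 87 genes of the pathway were examined, of which 54 passed the filter, 8 rose and 8 fell, beside 11.7% higher and 11.6% lower over all genes tested. Nothing about the list is read from these counts. The largest group of the list is that of other destruction complex and turnover genes, and 1 of the 17 tested rose and 5 fell. TNKS (-0.72, adjusted p = 0.00291) and TNKS2 (-0.55, adjusted p = 0.0185), which mark AXIN for degradation, fell, as did BTRC (-0.51, adjusted p = 0.0233), which recognises phosphorylated β-catenin, and CSNK2A2 (-0.54, adjusted p = 0.011), a kinase subunit. With the local offset TNKS gave -0.34 (adjusted p = 0.163), TNKS2 -0.092 (adjusted p = 0.752), BTRC -0.038 (adjusted p = 0.904) and CSNK2A2 -0.24 (adjusted p = 0.289), so none of these 4 stayed past the threshold. The remaining gene that fell, the kinase CSNK1E, named here after its values were seen, gave -0.48 (adjusted p = 0.0452) and -0.50 with the offset (adjusted p = 0.0483), and 6 other alternatives took it past 0.05. CCDC88C, whose product binds Dishevelled, rose by 0.52 on the log2 scale (adjusted p = 0.0252) and gave -0.10 with the offset.

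Among the nuclear factors of this second list, 2 of 13 tested rose (11.7% over all genes), namely BCL9L, the close relative of BCL9 (0.94, adjusted p = 0.000591), and CHD8, a chromatin remodeller (0.53, adjusted p = 0.0135). BCL9L was measured at 16.8, 14.3 and 12.3 FPKM in the Vector libraries and at 22.8, 34.3 and 25.6 FPKM in the OE-MMP28 libraries, so it moved in the opposite direction to BCL9. With the local offset BCL9L gave 0.48 (adjusted p = 0.0628) and CHD8 -0.081 (adjusted p = 0.76). Of 6 direct targets tested, the cell adhesion receptor CD44 (0.78, adjusted p = 0.000585) and the cell cycle gene CCND1 (0.52, adjusted p = 0.0207) rose, and with the offset they gave 0.63 (adjusted p = 0.00445) and 0.20 (adjusted p = 0.433). The adjusted p of CCND1 was above 0.05 in 7 of 16 alternatives. It was 0.0723 without Vector replicate 2, 0.105 without Vector replicate 3, 0.0701 without OE-MMP28 replicate 1 and 0.0879 without OE-MMP28 replicate 2.

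SOSTDC1, a secreted inhibitor of Wnt and bone morphogenetic protein signals, was the single inhibitor of the second list that was tested, and it rose. Libraries held 25, 34 and 34 counts against 74, 73 and 64 counts, with a log2 fold change of 1.03 (SE 0.29, adjusted p = 0.0146). WNT16 fell, at 2.93, 3.06 and 3.39 FPKM against 1.80, 1.76 and 1.82 FPKM, with a log2 fold change of -0.79 (SE 0.21, adjusted p = 0.00969). Among the planar polarity genes 1 of 7 tested rose (11.7% over all genes) and 6 gave no call. The gene that rose was PRICKLE1, named here after its values were seen, with 18, 9 and 12 counts against 83, 81 and 116 counts. The cell types were checked by 22 marker genes. All 7 epithelial markers were detected in every library, and their summed level was 10500 to 15000 CPM in the Vector libraries and 14400 to 18400 CPM in the OE-MMP28 libraries. Of these 7, KRT19 and MUC1 rose and CDH1 fell, and the part of this shift in the Wnt pathway values was not tested. The leukocyte list (6 markers, 295 to 326 against 188 to 262 CPM) was carried by LYZ, which fell (-0.45, adjusted p = 0.0376). CD14 was detected in every library, with 30, 22 and 28 against 22, 17 and 19 counts, and gave no call (adjusted p = 0.243). CD68 had 1 to 9 counts, CD3E was at 0, and PTPRC and CD163 had no more than 1 count in each library. The fibroblast list (6 markers, 104 to 126 against 120 to 169 CPM) was carried by LUM, and the endothelial list (3 markers) summed to 0.467 to 1.65 against 1.55 to 2.46 CPM. In the latter PECAM1 rose from 0, 4 and 4 to 13, 21 and 30 counts (adjusted p = 0.00361). VWF had 7, 9 and 19 against 12, 9 and 11 counts and gave no call (adjusted p = 0.735), and CDH5 had no more than 1 count in each library. The part of the leukocyte, fibroblast and endothelial markers in the Wnt pathway values was not tested either. In bulk RNA of this kind, fewer cells with a transcript and less of it per cell cannot be told apart.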

How the data were processed

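RNA of 3 Vector and 3 OE-MMP28 samples of AsPC-1 cells was sequenced, and the labels gave the group and number of each library. The authors deposited whole-number read counts per gene in 1 table, without normalisation or pooling. FPKM values, scaled by gene length and library total by the authors, were deposited in the same table and used for levels. The submitters' processing notes name HISAT2 2.0.5 and featureCounts 1.5.0-p3. The genome build, the strand setting and the handling of multiply mapped reads are not given in the sources used here, so reads of overlapping genes may be shared. Gene identifiers and coordinates matched those of GENCODE 29 (GRCh38) for 58735 of 58735 genes. The table also held fold changes and p-values of the authors' own comparison, which were not used. Every per-sample column was mapped (0 unmapped).

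The main test was the quasi-likelihood test of edgeR 4.0.16 (R 4.3.3) on the counts, with filterByExpr (minimum count 10, minimum total 15), TMM scaling, group as the only term, and Benjamini-Hochberg adjustment over 15319 genes at a threshold of 0.05. Each standard error (SE) is the absolute log2 fold change divided by the square root of the F statistic of this test. No pair of libraries was a duplicate (chi-square per degree of freedom from 15.55 within groups). Alternatives used limma 3.58.1 on log2(FPKM + 1) and log2(FPKM + 0.1) for genes with a mean FPKM of at least 0.5, limma voom, DESeq2 1.42.0, other filters and scalings, a replicate block, each library left out in turn, and an offset for the median log2 fold change of the genes within 5 Mb. The edgeR fits (alone, with the block and with the offset), DESeq2, limma voom and limma on FPKM were tested on simulated data, the other filters and scalings were not.

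The members and gene lists were chosen with earlier results of these data known. All members could be named, with values per library for those with a call, for TNFRSF19 and for the most abundant gene of the FZD, WNT, TCF/LEF, DVL and LRP families. Of the other pathway genes, up to 12 with an adjusted p under 0.05 and a mean of at least 1 FPKM were named, by size of change. Promoter sequences are those of RefSeq on GRCh38.p14.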

Additional observations from a re-analysis of the deposited data

How the results depend on the processing

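Of the 14 Wnt pathway genes with a call, 5 kept it under each of the 16 alternatives (AXIN2, LRP5, FZD1, WNT10A and ROR1), and 194 of 224 fits of these 14 genes passed the threshold in the same direction. The same shares over all called genes are not given, so these counts describe the 14 genes only. All fits draw on the same 6 libraries. Among the genes with a call in either list, the local-median offset reversed the direction in RYK (-0.14), CHD8 (-0.081) and CCDC88C (-0.10). Wnt pathway genes without a call also changed sign with it. These were TCF7L2 (-0.24 to 0.19), FZD5 (-0.34 to 0.16), FZD4 (0.25 to -0.21), DVL3 (0.28 to -0.21) and AXIN1 (0.021 to -0.23). With 1 library left out, the Wnt pathway genes that rose numbered 5 to 10 (9 with all libraries; 5 without OE-MMP28 replicate 2) and those that fell 2 to 6 (5 with all; 2 without Vector replicate 3 or OE-MMP28 replicate 3). The other pathway genes numbered 3 to 9 higher and 3 to 9 lower (8 and 8 with all; 4 higher and 3 lower without Vector replicate 3, 3 higher and 4 lower without OE-MMP28 replicate 2). Over all genes, 985 to 1916 rose and 1044 to 1949 fell (1795 and 1784 with all; 985 and 1044 without OE-MMP28 replicate 2, 1136 higher without Vector replicate 3). Under limma on log2(FPKM + 1) and log2(FPKM + 0.1), 2 and 2 Wnt pathway genes fell, 3 and 3 other pathway genes rose and 4 and 4 fell, and over all genes 1009 and 1000 rose and 965 and 970 fell. With the local-median offset 3 Wnt pathway genes fell, 4 other pathway genes rose and 4 fell, and 1138 of all genes rose. The causes of these shifts were not tested.

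Libraries that shared a number did not deviate together (correlations of 0.0168, 0.00798 and -0.0876), so the numbers were not read as pairs. With the replicate block 9 Wnt pathway genes rose and 5 fell, 9 other pathway genes rose and 8 fell, and over all genes 1844 rose and 1841 fell. MMP28 stayed past the threshold under each alternative (adjusted p from 4.08e-05 to 0.0319). Across all alternatives the median log2 fold change of all genes lay between -0.033 and 0.022. The depth limits the genes with few counts, of which 9 Wnt pathway genes were not tested. For FPKM the fold change depends on the pseudocount.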
